A study of Mus musculus with 11 samples.

Results

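The genes described here are 35 listed members of the p53 and DNA damage response, chosen by gene symbol: p53 and its regulators, known p53 target genes, and the kinases and the adaptor that sense DNA damage. A member was measured by a probe set that the platform annotation assigns to exactly 1 gene symbol. By that rule 34 of the 35 genes were measured, each by 1 probe set, of 19938 genes with such a probe set in the series. Trp53, which encodes p53 itself, had no such probe set and was not analysed here.

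Expression was measured with Affymetrix MoGene 1.0 ST arrays, which target whole transcripts, in liver RNA of male C57/BL6 mice aged 8 to 9 weeks on standard chow. The Nemo KO group (3 arrays) lacks Nemo in hepatocytes (NemoΔhepa, from a loxP-flanked gene). Ikbkg encodes Nemo, the subunit through which the IκB kinases are switched on to activate NF-κB. The Nemo/TNFR1 dKO group (3 arrays) carries the same hepatocyte deletion on a constitutive TNFR1-/- background, and the Nemo/TRAIL dKO group (2 arrays) carries it on a constitutive TRAIL-/- background, so that those receptors or ligands are missing from every cell of the animal. TNFR1 is a receptor for tumour necrosis factor and TRAIL a death ligand, and both can start apoptosis. The WT group (3 arrays) was wild type. The labels do not give the promoter that drives Cre, whether WT animals carried the floxed allele, or whether replicates were separate animals, so that the p-values reflect the spread among these samples alone, which may be technical. Values are log2 expression as deposited, differences are on that log2 scale with their standard error, and a gene was called at a Benjamini-Hochberg adjusted p below 0.05 in limma.

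p53 is a transcription factor that is stabilised after DNA damage and other stress and switches on genes for growth arrest, repair and cell death. Mdm2, itself a p53 target, binds p53 and marks it for degradation, which closes a feedback loop. Damage sensed by the kinases Atm and Atr is passed on through Chek2 and Chek1, and Chek1 also guards replication in dividing cells. In the liver, loss of hepatocytes is followed by division of the remaining ones.

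p53 binds a pair of 10-base elements (decamers), and these are shown because 10 of the 27 members with a RefSeq promoter window held at least 1 exact match to the decamer consensus. The window ran from 250 bases before to 50 bases after the annotated start (build GRCm38.p6). The consensus reads the same on both strands, so a match counts for both, and windows of 1 gene can overlap. A match was found in 37% of those 27 members, against 9.55% of all 27025 genes in the table. Many members are listed because they are known p53 targets, so this share describes the list and is no independent evidence. The sequences run 5′ to 3′ on the gene's strand, with decamers in capitals.
Ccng1: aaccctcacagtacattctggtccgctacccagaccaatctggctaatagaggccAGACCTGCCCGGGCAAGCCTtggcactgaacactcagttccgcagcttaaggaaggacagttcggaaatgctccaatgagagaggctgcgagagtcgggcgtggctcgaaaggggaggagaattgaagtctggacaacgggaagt
Gtse1: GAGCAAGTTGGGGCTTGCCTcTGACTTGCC
Mdm2: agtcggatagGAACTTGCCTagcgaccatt
Ddit4l: caactcccagGGGCTTGCCTgggcccctgc
Polk: catgtagcttGAACTAGCCTcaaacttatt
Gadd45a: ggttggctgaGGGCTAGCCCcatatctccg
Ei24: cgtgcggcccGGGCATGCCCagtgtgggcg
The Ccng1 stretch (chr11:40755337-40755536, minus strand) is longer than the others because it holds a decamer pair with no spacer, 1 letter off the consensus over both. Gtse1 (chr15:85859945-85859974, plus strand, at an annotated start) holds 2 pairs that share a decamer, the first with no spacer and the second with a spacer of 1 base, each 1 letter off, and the last decamer shown is cut short by 1 base. A pair of this kind, with at most 1 letter off and up to 13 bases between, was found in 2 members and in 0.718% of all genes. Mdm2 (chr10:117710925-117710954, minus strand), Ddit4l (chr3:137623572-137623601, plus strand) and Polk (chr13:96519399-96519428, minus strand) hold 1 decamer each. Gadd45a (chr6:67037428-67037457, minus strand) and Ei24 (chr9:36797325-36797354, minus strand) are shown as examples of members that hold a decamer and passed the test in no comparison. Sesn1 and Ppm1d are also of this kind but are not shown. Nor is Aen, which holds a decamer and was called higher in 2 comparisons with WT. A decamer was found in 5 of the 10 members with a window that were higher in all 3 comparisons with WT, and in 4 of the 14 that were called higher in none. A match is a run of letters and not a measured binding site.

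Correlations between the 11 arrays over all probe sets were 0.979 to 0.994. Of the targeted genes, Ikbkg was lower than WT by 0.24 in Nemo KO (adjusted p = 0.106), by 0.45 in Nemo/TNFR1 dKO (adjusted p = 0.008) and by 0.41 in Nemo/TRAIL dKO (adjusted p = 0.024). Tnfsf10, which encodes TRAIL, differed by -0.65 in Nemo/TRAIL dKO (adjusted p = 0.075). Tnfrsf1a, which encodes TNFR1, differed from WT by 0.35 in Nemo KO (adjusted p = 0.0401), 0.07 in Nemo/TNFR1 dKO (adjusted p = 0.67) and 0.43 in Nemo/TRAIL dKO (adjusted p = 0.0314), and by -0.27 in Nemo/TNFR1 dKO against Nemo KO (adjusted p = 0.586). The labels do not say which parts of these genes were removed, and probes outside a deleted part, or in cells that keep the gene, check nothing. Each double knockout has its own code in its array names, WT and Nemo KO have a common one, and the array numbers follow genotype, so that an effect of code (in the double knockouts) or number (in all groups) cannot be told apart from genotype. The Nemo/TRAIL dKO arrays are numbered 7 and 9, and no array of the series has number 8. WT replicate 3 stood apart in 8 pancreatic acinar genes, with a mean 3.53 above the WT mean, against -2.11 to -1.68 in every other array. Without that array 11 members were higher in Nemo KO, 11 in Nemo/TNFR1 dKO and 10 in Nemo/TRAIL dKO.

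In livers without hepatocyte Nemo, 11 to 14 of the 34 members rose against WT and at most 1 fell. In Nemo KO against WT, 14 of 34 members rose (41.2%) and 1 fell, against 6.08% of all 35556 probe sets called higher and 3.21% called lower (8.25% and 3.99% of the 21789 probe sets with 1 gene symbol). In Nemo/TNFR1 dKO against WT, 13 members rose (38.2%) and none fell, against 5.83% and 3.35% of all probe sets (7.88% and 3.87% of those with 1 gene symbol). In Nemo/TRAIL dKO against WT, 11 members rose (32.4%) and none fell, against 4.91% and 2.64% (6.66% and 3.26% of those with 1 gene symbol). The 3 comparisons share the same WT arrays. The 11 members that rose in Nemo/TRAIL dKO also rose in the other comparisons: Mdm2, Ccng1, Phlda3, Eda2r, Zmat3, Apaf1, Gtse1, Psrc1, Ddit4l, Polk and Chek1. Of all probe sets, 3.96% were higher in all 3.

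The median difference over the 34 members was 0.43 in Nemo KO, 0.44 in Nemo/TNFR1 dKO and 0.40 in Nemo/TRAIL dKO. Over the 21789 probe sets with 1 gene symbol the medians were -0.05, -0.02 and -0.04. In 15 members all 8 Nemo-deficient arrays lay above all 3 WT arrays, a pattern shown by 7.79% of all probe sets and 10.6% of those with 1 gene symbol, and in 2 members, Bbc3 and Slc19a2, all 8 lay below, as in 7.14% and 8.52%. The heat map gives each member in each array.

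**Figure D1:**
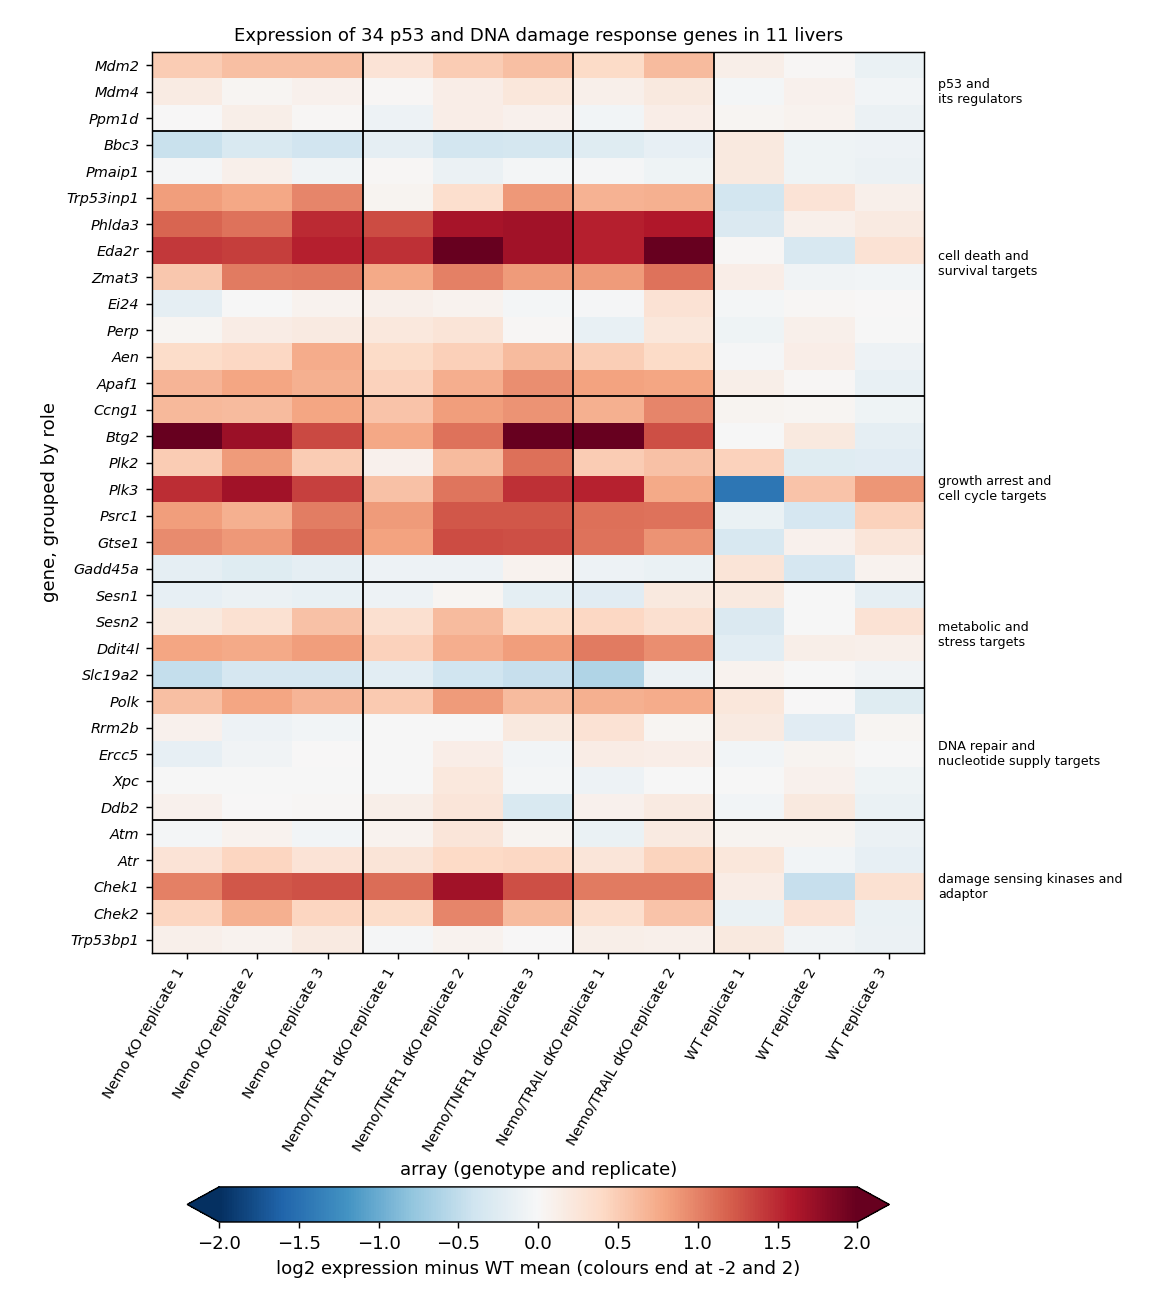
Log2 expression of the 34 measured members in each of the 11 arrays, as the difference from the mean of the 3 WT arrays, grouped by role. Rows such as Phlda3, Eda2r and Chek1 are above WT in all 8 Nemo-deficient arrays, and the repair rows other than Polk are near 0.

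Of the regulators of p53, 1 of 3 rose in each comparison with WT. For this and each later role, the share of single-symbol probe sets called higher was 8.25% in Nemo KO. It was 7.88% in Nemo/TNFR1 dKO and 6.66% in Nemo/TRAIL dKO. Beside these shares 1 call in so short a list says little, and no test compared the roles. Mdm2, the ubiquitin ligase that restrains p53, measured 9.12, 9.22 and 9.22 in Nemo KO, 8.89, 9.12 and 9.22 in Nemo/TNFR1 dKO and 9.00 and 9.25 in Nemo/TRAIL dKO, against 8.74, 8.63 and 8.48 in WT. All 8 Nemo-deficient arrays lay above WT, with the nearest, Nemo/TNFR1 dKO replicate 1, close to the highest WT array. The difference was 0.57 ± 0.11 in Nemo KO (1.49-fold, adjusted p = 0.0096), 0.46 ± 0.11 in Nemo/TNFR1 dKO (1.38-fold, adjusted p = 0.0256) and 0.51 ± 0.12 in Nemo/TRAIL dKO (1.42-fold, adjusted p = 0.0314). The call was kept in all 11 fits that left out 1 array in Nemo KO. In Nemo/TNFR1 dKO it was lost in 4 of them, without WT replicate 2 or 3 or Nemo/TNFR1 dKO replicate 2 or 3, with an adjusted p of up to 0.0927. In Nemo/TRAIL dKO it was lost in 6, without WT replicate 2 or 3, Nemo KO replicate 2 or 3 or either Nemo/TRAIL dKO array, with an adjusted p of up to 0.203.

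Mdm4, the Mdm2 relative that blocks the activation domain of p53, measured 8.73, 8.59 and 8.65 in Nemo KO, 8.58, 8.69 and 8.78 in Nemo/TNFR1 dKO and 8.66 and 8.75 in Nemo/TRAIL dKO, against 8.53, 8.65 and 8.50 in WT. Nemo KO and Nemo/TNFR1 dKO overlapped with WT, while both Nemo/TRAIL dKO arrays lay just above the highest WT array. None of the 3 differences passed the test, and the 95% interval in Nemo KO was -0.07 to 0.27. Ppm1d, a phosphatase that switches off damage signalling, had means of 8.50 in Nemo KO and 8.45 in WT, with an interval of -0.14 to 0.24.

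The members that act in cell death and survival are the largest role. Of these 10 genes, 6 rose and 1 fell in Nemo KO, 5 rose in Nemo/TNFR1 dKO and 4 rose in Nemo/TRAIL dKO. Phlda3, an inhibitor of Akt, measured 7.77, 7.69 and 8.10 in Nemo KO, 7.91, 8.25 and 8.28 in Nemo/TNFR1 dKO and 8.17 and 8.21 in Nemo/TRAIL dKO, against 6.32, 6.71 and 6.79 in WT. The lowest Nemo-deficient array was 7.69 and the highest WT array 6.79. The difference was 1.24 ± 0.15 in Nemo KO (2.37-fold, adjusted p = 0.0014), 1.54 ± 0.15 in Nemo/TNFR1 dKO (2.91-fold, adjusted p = 0.000646) and 1.58 ± 0.17 in Nemo/TRAIL dKO (2.99-fold, adjusted p = 0.00123).

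Eda2r, a member of the tumour necrosis factor receptor family that binds ectodysplasin, had the largest called fold of this role in each comparison. It measured 6.34, 6.30 and 6.47 in Nemo KO, 6.37, 7.10 and 6.59 in Nemo/TNFR1 dKO and 6.47 and 7.30 in Nemo/TRAIL dKO, against 4.94, 4.60 and 5.21 in WT. The groups did not overlap, and the spread was wider in the double knockouts than in Nemo KO. The difference was 1.45 ± 0.25 in Nemo KO (2.73-fold, adjusted p = 0.0063), 1.77 ± 0.25 in Nemo/TNFR1 dKO (3.41-fold, adjusted p = 0.00256) and 1.97 ± 0.28 in Nemo/TRAIL dKO (3.92-fold, adjusted p = 0.00344).

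Zmat3, an RNA-binding zinc finger protein, measured 7.07, 7.57 and 7.58 in Nemo KO, 7.28, 7.53 and 7.38 in Nemo/TNFR1 dKO and 7.38 and 7.61 in Nemo/TRAIL dKO, against 6.66, 6.45 and 6.47 in WT. All 8 arrays were above WT, by 0.88 ± 0.14, 0.87 ± 0.14 and 0.97 ± 0.16 (1.84-, 1.83- and 1.96-fold, adjusted p = 0.00498, 0.00518 and 0.00675). Apaf1, the scaffold of the apoptosome that activates caspase-9, measured 7.42, 7.53 and 7.46 in Nemo KO, 7.20, 7.47 and 7.67 in Nemo/TNFR1 dKO and 7.55 and 7.54 in Nemo/TRAIL dKO, against 6.87, 6.77 and 6.60 in WT. It too was higher in all 8, by 0.72 ± 0.11, 0.70 ± 0.11 and 0.80 ± 0.13 (1.65-, 1.62- and 1.74-fold, adjusted p = 0.00453, 0.0052 and 0.00611). In Nemo/TRAIL dKO, Apaf1 lost its call without replicate 1 (adjusted p = 0.0559) and Zmat3 without replicate 2 (adjusted p = 0.0566).

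Aen, a nuclease that acts in apoptosis, measured 7.16, 7.20 and 7.53 in Nemo KO, 7.18, 7.27 and 7.43 in Nemo/TNFR1 dKO and 7.29 and 7.18 in Nemo/TRAIL dKO, against 6.77, 6.93 and 6.69 in WT. It did not overlap with WT in any of the 3 genotypes. It rose by 0.50 ± 0.11 in Nemo KO (adjusted p = 0.0225) and by 0.50 ± 0.11 in Nemo/TNFR1 dKO (adjusted p = 0.0241), and the difference in Nemo/TRAIL dKO was 0.44 ± 0.13 (adjusted p = 0.0722). The Nemo KO call was lost without WT replicate 1 or 3 or Nemo KO replicate 3 (adjusted p up to 0.0685), and the Nemo/TNFR1 dKO call without WT replicate 1 or 3 or Nemo/TNFR1 dKO replicate 2 or 3 (adjusted p up to 0.0895).

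Trp53inp1, which helps p53 and also acts in autophagy, measured 11.31, 11.25 and 11.44 in Nemo KO, 10.52, 10.81 and 11.34 in Nemo/TNFR1 dKO and 11.16 and 11.18 in Nemo/TRAIL dKO, against 10.10, 10.74 and 10.58 in WT. Nemo KO and Nemo/TRAIL dKO lay above WT, while the lowest Nemo/TNFR1 dKO array fell within the WT range. It rose by 0.86 ± 0.21 in Nemo KO (1.82-fold, adjusted p = 0.0323), and the differences were 0.42 ± 0.21 in Nemo/TNFR1 dKO (adjusted p = 0.271) and 0.70 ± 0.23 in Nemo/TRAIL dKO (adjusted p = 0.116). The Nemo KO call was lost without WT replicate 1 or 3 or any 1 Nemo KO array, with an adjusted p of up to 0.108.

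Bbc3, which encodes the BH3-only death protein Puma, was the 1 member that fell. It measured 6.13, 6.28 and 6.19 in Nemo KO, 6.39, 6.21 and 6.23 in Nemo/TNFR1 dKO and 6.33 and 6.42 in Nemo/TRAIL dKO, against 6.77, 6.50 and 6.47 in WT. All 8 Nemo-deficient arrays were below WT, by a narrow margin at Nemo/TRAIL dKO replicate 2. The difference was -0.38 ± 0.09 in Nemo KO (adjusted p = 0.0341), -0.30 ± 0.09 in Nemo/TNFR1 dKO (adjusted p = 0.0794) and -0.20 ± 0.10 in Nemo/TRAIL dKO (adjusted p = 0.304). Bbc3 lost its call without WT replicate 1 or 2 or any 1 Nemo KO array, with an adjusted p of up to 0.103. Pmaip1, which encodes the related death protein Noxa, had means of 5.75 in Nemo KO and 5.75 in WT, and Perp and Ei24 also passed in no comparison.

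**Figure D2:**
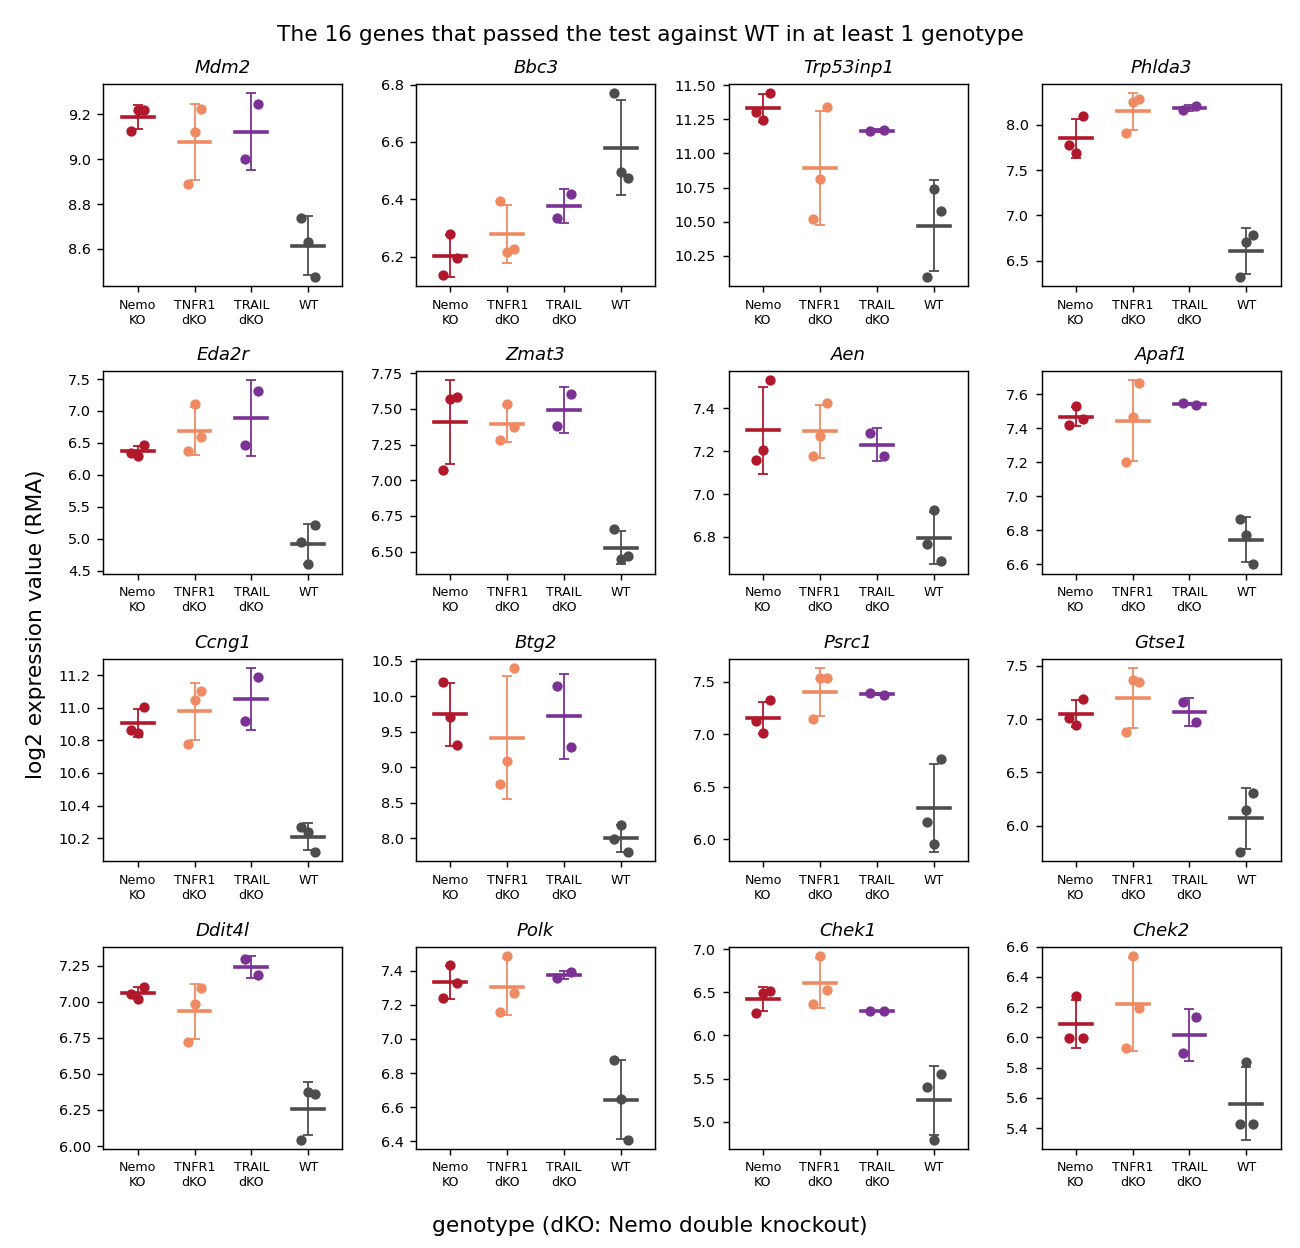
Log2 expression value of the 16 members that passed the test against WT in at least 1 genotype. Each point is an array, lines are group means and bars are the SD (n = 3, or 2 in Nemo/TRAIL dKO). In the panels for Phlda3, Eda2r and Ccng1 every Nemo-deficient point is above every WT point, and in the panel for Bbc3 every one is below.

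Growth arrest and cell cycle targets had 4 of 7 members higher in Nemo KO and 3 of 7 in each double knockout. Ccng1, cyclin G1, a p53 target that feeds back on Mdm2, measured 10.86, 10.85 and 11.002 in Nemo KO, 10.78, 11.05 and 11.10 in Nemo/TNFR1 dKO and 10.92 and 11.19 in Nemo/TRAIL dKO, against 10.27, 10.24 and 10.12 in WT. All 8 arrays lay above WT, and replicates spread little. The difference was 0.70 ± 0.11 in Nemo KO (1.62-fold, adjusted p = 0.0036), 0.77 ± 0.11 in Nemo/TNFR1 dKO (1.7-fold, adjusted p = 0.00236) and 0.85 ± 0.12 in Nemo/TRAIL dKO (1.8-fold, adjusted p = 0.00338).

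Gtse1, a protein of G2 and mitosis that moves p53 out of the nucleus, measured 7.01, 6.94 and 7.19 in Nemo KO, 6.88, 7.37 and 7.35 in Nemo/TNFR1 dKO and 7.16 and 6.97 in Nemo/TRAIL dKO, against 5.75, 6.15 and 6.31 in WT. It rose by 0.98 ± 0.17, 1.13 ± 0.17 and 0.998 ± 0.19 (1.97-, 2.19- and 2-fold, adjusted p = 0.00663, 0.00335 and 0.0121). Psrc1, a protein of the mitotic spindle, measured 7.13, 7.01 and 7.32 in Nemo KO, 7.14, 7.53 and 7.54 in Nemo/TNFR1 dKO and 7.39 and 7.38 in Nemo/TRAIL dKO, against 6.17, 5.96 and 6.76 in WT. It rose by 0.86 ± 0.19, 1.11 ± 0.19 and 1.09 ± 0.22 (1.81-, 2.16- and 2.13-fold, adjusted p = 0.0226, 0.00696 and 0.0151). In neither gene did the Nemo-deficient arrays overlap WT. Psrc1 lost its Nemo KO call without WT replicate 1 or 2 or Nemo KO replicate 1 or 3 (adjusted p up to 0.0881). Gtse1 lost its Nemo/TRAIL dKO call without replicate 1 (adjusted p = 0.108) and Psrc1 without either array (adjusted p up to 0.102).

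Btg2, an antiproliferative gene that also responds rapidly to many stimuli, measured 10.20, 9.71 and 9.32 in Nemo KO, 8.76, 9.09 and 10.40 in Nemo/TNFR1 dKO and 10.14 and 9.29 in Nemo/TRAIL dKO, against 7.99, 8.19 and 7.81 in WT. All 8 arrays were above WT but differed widely within each genotype. The difference was 1.75 ± 0.41 in Nemo KO (3.36-fold, adjusted p = 0.0263), 1.42 ± 0.41 in Nemo/TNFR1 dKO (2.68-fold, adjusted p = 0.0608) and 1.72 ± 0.45 in Nemo/TRAIL dKO (3.3-fold, adjusted p = 0.0511). In Nemo KO, Btg2 was no longer called without any 1 WT array or without Nemo KO replicate 1 or 2 (adjusted p up to 0.0864). Both double knockouts passed the threshold for Btg2 when probe sets were filtered at the 25th percentile of mean expression (adjusted p = 0.045 in Nemo/TNFR1 dKO and 0.0375 in Nemo/TRAIL dKO).

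Plk3, a stress-responsive kinase of the polo family, measured 10.78, 10.98 and 10.68 in Nemo KO, 9.89, 10.38 and 10.77 in Nemo/TNFR1 dKO and 10.84 and 10.06 in Nemo/TRAIL dKO, against 7.86, 9.87 and 10.18 in WT. The low value of WT replicate 1 gave it the largest within-group SD of all members, 0.75, and the difference of 1.51 ± 0.53 in Nemo KO missed the threshold (adjusted p = 0.113). Plk2, its relative, differed by 0.62 ± 0.26 (adjusted p = 0.17) with a within-group SD of 0.36, and Gadd45a by -0.21 ± 0.13 (adjusted p = 0.364).

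Of the metabolic and stress targets 1 of 4 rose in each comparison, and 1 call in so short a list says little. Ddit4l, an inhibitor of mTOR signalling, measured 7.06, 7.02 and 7.10 in Nemo KO, 6.72, 6.99 and 7.09 in Nemo/TNFR1 dKO and 7.30 and 7.19 in Nemo/TRAIL dKO, against 6.04, 6.37 and 6.36 in WT. The groups did not overlap, and the difference was 0.80 ± 0.11, 0.67 ± 0.11 and 0.98 ± 0.13 (1.74-, 1.59- and 1.98-fold, adjusted p = 0.00275, 0.00606 and 0.00251). Slc19a2, a thiamine transporter, measured 10.36, 10.51 and 10.49 in Nemo KO, 10.62, 10.44 and 10.37 in Nemo/TNFR1 dKO and 10.23 and 10.72 in Nemo/TRAIL dKO, against 10.90, 10.83 and 10.77 in WT. Every Nemo-deficient array was below WT, and the differences of -0.38 ± 0.12, -0.36 ± 0.12 and -0.36 ± 0.14 missed the threshold (adjusted p = 0.0866, 0.107 and 0.161). In Nemo KO, Slc19a2 passed it as lower with only the 2 groups compared (adjusted p = 0.0298). It was also called lower in each genotype in some fits that left out a Nemo/TRAIL dKO array, which leave 1 array in that group. Sesn2, which restrains mTOR under stress, differed by 0.36 ± 0.15 in Nemo KO (adjusted p = 0.188), and its relative Sesn1 by -0.15 (adjusted p = 0.507).

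Repair and nucleotide supply targets held 1 called member of 5, again too short a list for 1 call to say much. Polk, a DNA polymerase that copies past damaged bases, measured 7.24, 7.43 and 7.33 in Nemo KO, 7.16, 7.49 and 7.27 in Nemo/TNFR1 dKO and 7.36 and 7.39 in Nemo/TRAIL dKO, against 6.87, 6.65 and 6.41 in WT. All 8 arrays were above WT, by 0.69 ± 0.12, 0.66 ± 0.12 and 0.73 ± 0.14 (1.61-, 1.58- and 1.66-fold, adjusted p = 0.00813, 0.00961 and 0.0122). The Nemo/TRAIL dKO call was lost without either of its arrays (adjusted p up to 0.0828). Xpc and Ddb2, which recognise damage for nucleotide excision repair, Ercc5, a nuclease of that pathway, and Rrm2b, a subunit of ribonucleotide reductase, had Nemo KO differences between -0.07 and 0.04. The 95% intervals of these 4 lay within -0.28 and 0.34.

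Among the damage sensing kinases and the adaptor, Chek1 rose in all 3 comparisons and Chek2 in 1. Such counts in so short a list also say little. Chek1, the kinase downstream of Atr, measured 6.26, 6.49 and 6.51 in Nemo KO, 6.36, 6.92 and 6.53 in Nemo/TNFR1 dKO and 6.28 and 6.28 in Nemo/TRAIL dKO, against 5.40, 4.79 and 5.55 in WT. No Nemo-deficient array overlapped WT, and the difference was 1.17 ± 0.20, 1.36 ± 0.20 and 1.03 ± 0.22 (2.26-, 2.56- and 2.05-fold, adjusted p = 0.0061, 0.00312 and 0.0213). Without either Nemo/TRAIL dKO array the last call was lost (adjusted p up to 0.125). Chek2, the kinase downstream of Atm, measured 5.999, 6.27 and 5.999 in Nemo KO, 5.93, 6.54 and 6.20 in Nemo/TNFR1 dKO and 5.89 and 6.13 in Nemo/TRAIL dKO, against 5.42, 5.84 and 5.43 in WT. All 8 Nemo-deficient arrays were above WT, the lowest by a narrow margin. Chek2 rose by 0.66 ± 0.17 in Nemo/TNFR1 dKO (1.58-fold, adjusted p = 0.042), a call kept in 2 of 11 fits that left out an array, those without WT replicate 2 or Nemo/TNFR1 dKO replicate 1. The differences in Nemo KO and Nemo/TRAIL dKO were 0.53 ± 0.17 (adjusted p = 0.0899) and 0.45 ± 0.19 (adjusted p = 0.21).

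Atr, the kinase that senses single-stranded DNA, measured 7.39, 7.54 and 7.39 in Nemo KO, 7.36, 7.51 and 7.52 in Nemo/TNFR1 dKO and 7.35 and 7.55 in Nemo/TRAIL dKO, against 7.33, 7.06 and 6.94 in WT. All 8 arrays were above WT, but the differences of 0.33 ± 0.11, 0.36 ± 0.11 and 0.34 ± 0.12 missed the threshold (adjusted p = 0.0948, 0.0749 and 0.134). Without WT replicate 1, the highest of the WT arrays, they passed it (adjusted p = 0.028, 0.0213 and 0.0385). Atm, which senses double-strand breaks, measured 7.22, 7.32 and 7.20 in Nemo KO, 7.32, 7.50 and 7.30 in Nemo/TNFR1 dKO and 7.13 and 7.44 in Nemo/TRAIL dKO, against 7.31, 7.32 and 7.14 in WT. Trp53bp1, an adaptor that binds chromatin at breaks, measured 7.17, 7.15 and 7.25 in Nemo KO, 7.05, 7.15 and 7.08 in Nemo/TNFR1 dKO and 7.19 and 7.18 in Nemo/TRAIL dKO, against 7.27, 7.002 and 6.95 in WT. Both genes overlapped between the groups, with 95% intervals in Nemo KO of -0.23 to 0.21 for Atm and -0.08 to 0.31 for Trp53bp1.

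**Figure D3:**
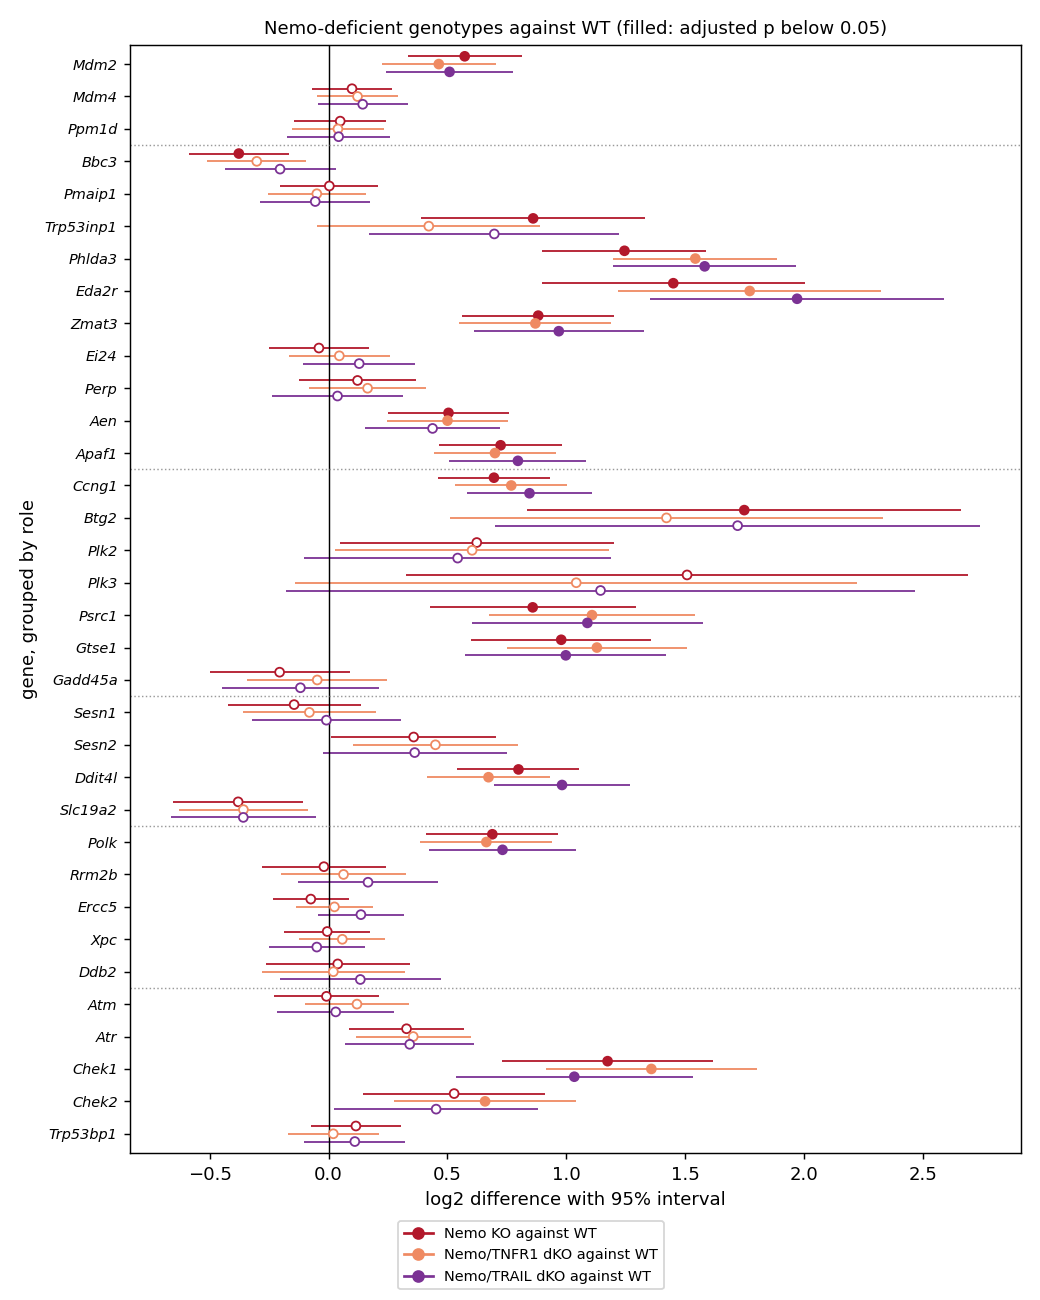
Log2 difference of each member from WT with its 95% interval in Nemo KO, Nemo/TNFR1 dKO and Nemo/TRAIL dKO, grouped by role, with filled points at an adjusted p below 0.05. Eda2r and Phlda3 lie furthest to the right among the members filled in all 3 genotypes, while the intervals of Xpc, Ddb2, Ercc5 and Rrm2b span 0 throughout.

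Proliferation genes had larger differences from WT than most members. Of 13 measured proliferation markers 13 rose in Nemo KO, 13 in Nemo/TNFR1 dKO and 12 in Nemo/TRAIL dKO, with medians of 1.84, 2.06 and 1.85. In Nemo KO Ccna2, a cyclin of S phase and G2, rose by 3.22 ± 0.36, Ccnb2, a mitotic cyclin, by 3.15 ± 0.29, and Plk1, a mitotic kinase, by 2.84 ± 0.29. Their mean per array, as the difference from the WT mean, was 1.96, 1.85 and 1.99 in Nemo KO, 1.64, 2.49 and 2.17 in Nemo/TNFR1 dKO and 2.03 and 1.84 in Nemo/TRAIL dKO, against -0.11, -0.20 and 0.31 in WT. Nemo/TNFR1 dKO replicate 2, the highest array of that genotype by this mean, was also its highest for Gtse1, Chek1 and Chek2, while Psrc1 was highest in replicate 3. WT replicate 3, the highest WT array by this mean, was also the highest for Gtse1, Psrc1 and Chek1, while Chek2 was highest in WT replicate 2. Eda2r, listed under cell death and survival, and Sesn2, listed under metabolic and stress targets, were also highest in both of these arrays. Zmat3 and Polk were highest in Nemo/TNFR1 dKO replicate 2, but in WT replicate 1. In Nemo KO, replicate 3 was highest by this mean and for Gtse1, Psrc1, Chek1, Eda2r and Sesn2, and replicate 2 for Chek2. In Nemo/TRAIL dKO, replicate 1 was highest by this mean and for Gtse1, Psrc1 and Sesn2, and replicate 2 for Chek2 and Eda2r. With so few arrays in a group, some members would share its highest array without any link, and not every member is listed here. The part of proliferation in the member differences was not tested.

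The immediate early genes, which respond rapidly to many stimuli, varied between replicates. Of 11, 2 rose in Nemo KO (Atf3 by 2.07 ± 0.31 and Jun by 1.70 ± 0.46, both transcription factors), 1 in Nemo/TNFR1 dKO and 1 in Nemo/TRAIL dKO. These are 18.2%, 9.09% and 9.09%, beside 8.25%, 7.88% and 6.66% of the probe sets with 1 gene symbol. In the double knockouts the shares are near those of all such probe sets. The mean of the immediate early genes per array was 1.01, 0.78 and 0.09 above the WT mean in Nemo KO, 0.10, 0.16 and 0.9996 in Nemo/TNFR1 dKO and 0.40 and 0.15 in Nemo/TRAIL dKO, against -0.17, 0.30 and -0.13 in WT. Within each Nemo-deficient genotype the arrays kept the same order by this mean and by Btg2. In WT they did not, with replicate 1 lowest by this mean and replicate 3 lowest for Btg2. The part of these genes in the Btg2 difference was not tested.

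The RNA came from whole liver, in which fewer cells of a type and less RNA per cell cannot be told apart. None of 7 hepatocyte markers was called in any Nemo-deficient genotype against WT, and their mean stayed between -0.07 and 0.03 of the WT mean in every array. Macrophage and monocyte markers rose in 8 of 8 genes in each Nemo-deficient genotype, with medians of 1.36, 1.03 and 1.27, and their mean per array lay between 1.42 and 1.91 in the 8 Nemo-deficient arrays, against -0.06 to 0.07 in WT. In Nemo KO Gpnmb, a glycoprotein of lipid-laden macrophages, rose by 3.38 ± 0.25, Mmp12, macrophage elastase, by 3.37 ± 0.22 and Itgax, which encodes CD11c, by 1.42 ± 0.22. Stellate cell and myofibroblast markers rose in 5 of 6 genes in each, with medians of 1.38, 1.31 and 1.19, and in Nemo KO the matrix genes Lum and Col1a1 rose by 2.40 ± 0.29 and 1.74 ± 0.28 and the receptor gene Pdgfrb by 1.61 ± 0.20. Called higher in Nemo KO, Nemo/TNFR1 dKO and Nemo/TRAIL dKO were 1, 3 and 1 of 6 T and NK cell markers (Nkg7, a granule gene of killer cells, by 0.72 ± 0.17 in Nemo KO), 0, 1 and 2 of 5 endothelial markers (1 was lower in Nemo/TRAIL dKO) and 0, 0 and 1 of 4 cholangiocyte markers. Of the probe sets with 1 gene symbol, 8.25%, 7.88% and 6.66% were called higher in these genotypes, and 1 call in so short a list says little. None of 3 B cell, 5 neutrophil and 8 pancreatic acinar markers was called higher. The part of these cells in the member differences was not tested.

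**Figure D4:**
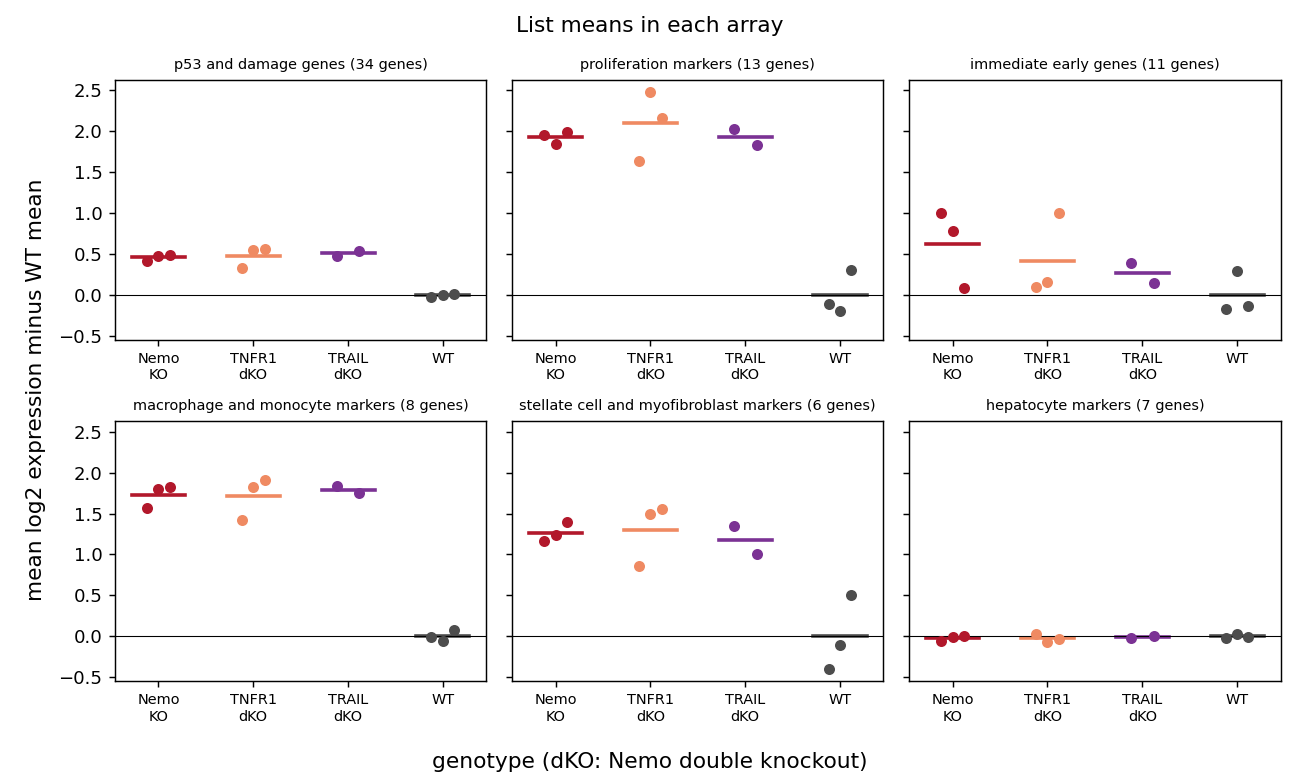
Mean log2 expression of 6 gene lists in each array, as the difference from the WT mean. Each point is an array and lines are group means. The 34 members lie between 0.33 and 0.56 in the Nemo-deficient arrays, below the proliferation and macrophage means, and the hepatocyte markers lie between -0.07 and 0.03 in every array.

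Among further p53 targets and repair genes the counts differed between lists and genotypes, beside 8.25%, 7.88% and 6.66% of single-symbol probe sets called higher in Nemo KO, Nemo/TNFR1 dKO and Nemo/TRAIL dKO. Of 21 other p53 targets measured, 6 rose (28.6%) and 1 fell in Nemo KO, 7 rose (33.3%) in Nemo/TNFR1 dKO and 6 rose (28.6%) in Nemo/TRAIL dKO, with medians of 0.14, 0.26 and 0.22. In Nemo KO Ckap2, a spindle protein, rose by 2.48 ± 0.27, Tnfrsf10b, a mouse TRAIL receptor, by 1.62 ± 0.18 and Sulf2, a heparan sulfatase, by 0.63 ± 0.14. Dcxr, a xylulose reductase named after its value was seen, fell by 0.57 ± 0.14 in that genotype. Cdkn1a, Bax, Gdf15 and Fdxr, also of that list, were not analysed here. Of 32 genes of double-strand break and replication stress repair, 5 rose (15.6%) in Nemo KO, 11 rose (34.4%) and 1 fell in Nemo/TNFR1 dKO, and 3 rose (9.38%) in Nemo/TRAIL dKO, the last a share near that of all single-symbol probe sets. Their medians were 0.14, 0.23 and 0.18. H2ax, the histone variant phosphorylated at breaks, rose by 0.74 ± 0.11 in Nemo KO, Topbp1, an activator of Atr, by 0.57 ± 0.14, and Rpa2, a subunit of the protein that coats single-stranded DNA, by 0.43 ± 0.07. Of 21 excision and mismatch repair genes Neil3, a DNA glycosylase, was the 1 gene called (4.76%) in Nemo KO (0.79 ± 0.18) and in Nemo/TNFR1 dKO, below the share of all single-symbol probe sets, and none was called in Nemo/TRAIL dKO.

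Between the Nemo-deficient genotypes no member passed the threshold, as was true of nearly all probe sets. In limma 0 of 34 members were called in Nemo/TNFR1 dKO against Nemo KO, 0 in Nemo/TRAIL dKO against Nemo KO and 0 in Nemo/TNFR1 dKO against Nemo/TRAIL dKO, against 0.0337%, 0.00562% and 0.0478% of all probe sets. With shares this low, 0 calls would be usual in any list of 34 and says nothing particular about the members. At an unadjusted p below 0.05 the counts were 0, 1 and 1, against 6.37%, 3.43% and 4.33% of the probe sets with 1 gene symbol. The 1 member in Nemo/TRAIL dKO against Nemo KO was Ercc5, with a difference of 0.21 ± 0.08 (unadjusted p = 0.026, adjusted p = 1). The 1 in Nemo/TNFR1 dKO against Nemo/TRAIL dKO was Ddit4l, with -0.31 ± 0.13 (unadjusted p = 0.0373, adjusted p = 0.97).

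The differences between Nemo-deficient genotypes were small beside those from WT for most called members, but their intervals leave room for moderate ones. Eda2r differed by 0.32 ± 0.25 in Nemo/TNFR1 dKO against Nemo KO (95% interval -0.23 to 0.87) and by 0.52 ± 0.28 in Nemo/TRAIL dKO against Nemo KO (-0.10 to 1.14). Phlda3 differed by 0.30 ± 0.15 (-0.05 to 0.64) and 0.34 ± 0.17 (-0.05 to 0.72) in the same comparisons, and Trp53inp1 by -0.44 ± 0.21 in Nemo/TNFR1 dKO against Nemo KO (adjusted p = 0.735). Both comparisons share the Nemo KO arrays. The median over the 34 members was 0.04 in Nemo/TNFR1 dKO against Nemo KO, 0.03 in Nemo/TRAIL dKO against Nemo KO and -0.04 in Nemo/TNFR1 dKO against Nemo/TRAIL dKO, with ranges of -0.47 to 0.32, -0.36 to 0.52 and -0.31 to 0.32. A p above the threshold does not show that the genotypes were alike.

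**Figure D5:**
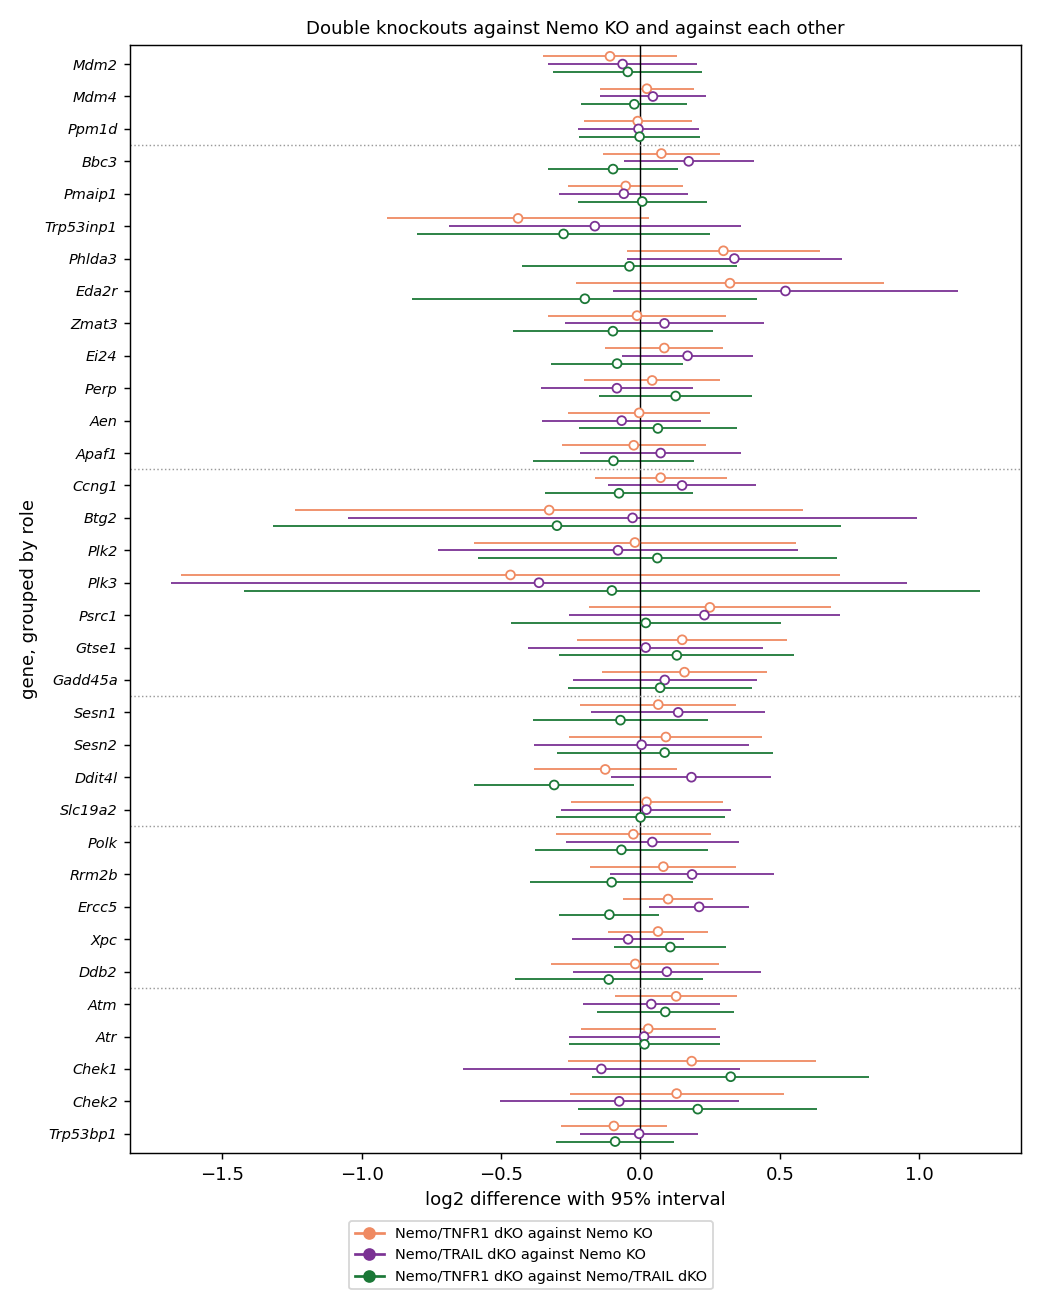
Log2 difference of each member between Nemo-deficient genotypes with its 95% interval, grouped by role. Every point is open because none reached an adjusted p below 0.05, and the medians lie at 0.04, 0.03 and -0.04.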

How the data were processed

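The values are log2 expression of 35556 probe sets on 11 arrays, which the authors made with RMA per the submitters' processing notes. Those notes name no RMA version, and nothing further was normalized. Scanner files and detection calls were not used here. Gene names came from the platform annotation, in which 21789 probe sets had 1 gene symbol, 1621 several and 12146 none. Promoters came from RefSeq tables for GRCm38.p6.

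Samples were grouped by the labelled genotype. A linear model with a mean for each genotype, fitted with limma 3.58.1 in R 4.3.3, used every array and probe set, and eBayes ran with its defaults (7 residual and 2.51 prior degrees of freedom). Two-sided p-values were adjusted by Benjamini-Hochberg over all probe sets within each of 6 comparisons. The number of arrays limits the precision, with a median standard error of 0.102 where both groups had 3 arrays and 0.114 where 1 had 2. The fit was also run on simulated data with independent noise of equal spread in every group. That run checks the code and cannot check outlying arrays, unequal spread or array numbers that follow genotype. The members and the gene lists were chosen with earlier results of these data known. All members were named. Of the other lists, up to 3 genes with the largest difference called in Nemo KO were named, and a gene outside this rule is marked as such.

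Same-numbered samples were checked for pairing. Their deviations from the group means correlated between -0.117 and 0.0435 over 15 pairs, so the numbers were not taken as pairs. The check and the replicate block used the labelled replicate numbers. The Nemo/TRAIL dKO array labelled replicate 2 has array number 9, and the number before it is absent. Its match with replicate 2 of the other groups may therefore be wrong. Alternatives were a variance trend, array weights, quantile normalization, median centring, a filter at the 25th percentile (which all 34 members passed), the mean over a gene's probe sets, only the 2 groups compared, a replicate block, an adjusted p below 0.01 and each array left out in turn.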

Additional observations from a re-analysis of the deposited data

How the results depend on the processing

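The number of members called higher stayed within 1.5 times in Nemo KO (11 to 14 when 1 array was left out, 12 with only the 2 groups compared, 10 at an adjusted p below 0.01) and in Nemo/TNFR1 dKO (10 to 14, 10 and 10). In Nemo/TRAIL dKO, the group of 2, it was 5 to 12 when 1 array was left out, 7 with only the 2 groups compared and 6 at an adjusted p below 0.01. The lowest counts came without Nemo/TRAIL dKO replicate 1 (5) and replicate 2 (6). The number called lower in Nemo KO was 0 with a replicate block, 0 at an adjusted p below 0.01 and 0 to 2 when 1 array was left out. When 1 array was left out it was 0 to 1 in Nemo/TNFR1 dKO and 0 to 1 in Nemo/TRAIL dKO. The median difference of the members in Nemo/TNFR1 dKO was 0.312 without WT replicate 1 and 0.534 without Nemo/TNFR1 dKO replicate 1. A stricter threshold cannot add calls by construction, and the cause of the other shifts was not tested. Of the calls, 10 of 15 in Nemo KO, 10 of 13 in Nemo/TNFR1 dKO and 4 of 11 in Nemo/TRAIL dKO were kept in every fit that left out 1 array, and no called difference changed sign. Eda2r, Phlda3, Ccng1 and Ddit4l were kept in all 3 genotypes. The replicate numbers were not taken as pairs, although with so few arrays the check cannot exclude a link between same-numbered samples. With the replicate block 14, 13 and 11 members were higher, while in Nemo KO Bbc3 (adjusted p = 0.0572) and Btg2 (0.0568) and in Nemo/TRAIL dKO Mdm2 (0.0582) missed the threshold, and Chek2 in Nemo KO (0.0131) and Trp53inp1 in Nemo/TRAIL dKO (0.0497) passed it. With only the 2 groups compared, the calls lost were Bbc3, Aen and Psrc1 in Nemo KO, Mdm2, Polk and Chek2 in Nemo/TNFR1 dKO, and Mdm2, Gtse1, Psrc1, Polk and Chek1 in Nemo/TRAIL dKO. Chek2 in Nemo/TNFR1 dKO was also lost with array weights (0.0504). Of member differences from WT that missed the threshold, 6, 7 and 9 results in Nemo KO, Nemo/TNFR1 dKO and Nemo/TRAIL dKO passed it under an alternative and 18, 25 and 13 changed sign. Detection calls were not used, so whether low values such as those of Chek1 and Eda2r in WT lay above background was not tested.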
